A study of Rattus norvegicus with 8 samples.

Results

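The basal distribution of nuclear-encoded transcripts between neuronal processes and somata was measured in the vehicle-treated arm of a compartment study. The comparison was between 4 of the 8 libraries of the series, 2 from processes and 2 from somata, in a fit over all 8. It covered 14290 tested genes of the 28872 nuclear-encoded symbols in the count table. The cells were primary hippocampal neurons of embryonic Sprague-Dawley rats, plated on porous culture inserts so that the somata stay on the upper side of the membrane while dendrites and axons can grow through the pores. Vehicle cultures received absolute ethanol for 48 h and were lysed on day 20 in vitro, and the other 4 libraries came from both compartments of cultures given the GABA-A receptor blocker picrotoxin (PTX) over the same period. Ribosomal RNA was depleted from total RNA before sequencing. A process library is RNA from the lower side of a filter and so holds processes of every cell type that crosses it, and no source used here says whether the 2 libraries of a group came from separate cultures, so that the p-values measure only the spread between these samples.

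Neurons carry part of their mRNA into dendrites and axons, where ribosomes translate it at a distance from the nucleus. The mRNAs known for this include those of the kinase CaMKII alpha, of scaffolds of the postsynaptic density and of the translation machinery, which travel in RNA granules along microtubules. Small nuclear RNAs, in contrast, act in the nucleus, which the pores of the membrane keep in the somatic compartment.

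The somata libraries held 13012461 and 13751530 counts and the process libraries 18455662 and 15120334. Genes of the mitochondrial genome took 68.9% to 72.5% of the process counts and 24.3% to 26.7% of the somatic counts, which left 4702054 to 5072410 nuclear-encoded counts per process library and 9537410 to 10404334 per somata library. A median tested gene had 267 and 293 reads in the somata libraries and 101 and 95 in the process libraries. Levels are given as CPM, counts per 1000000 of the library size after TMM scaling, a scaling that centres the bulk of the genes, so that every difference is relative to the typical gene and not to the RNA content of a compartment. Log2 CPM of the 2 replicates correlated across genes with r = 0.986 in somata and 0.978 in processes.

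The compartments were compared by the quasi-likelihood test of edgeR with p-values adjusted after Benjamini and Hochberg, and a log2 fold change is always processes minus somata. A gene was called at an adjusted p-value under 0.05 and was counted as enriched when the absolute log2 fold change was also above 1. By this rule 1639 genes (11.5% of those tested) were enriched in processes and 1084 (7.59%) in somata. At any size of change, 3669 genes (25.7%) were called higher in processes and 3135 (21.9%) higher in somata. The median log2 fold change over all tested genes was -0.05, the lower and upper quartiles were -0.53 and 0.50, and the median standard error was 0.179. Within 0.1 of the log2 limit of 1, 236 process-side genes lay inside and 213 outside, and on the somatic side 209 lay inside and 226 outside. Upper quartile scaling, which moved the median of all genes to -0.25, called 2731 genes higher in processes and 4704 higher in somata. With libraries scaled by their nuclear-encoded counts the median was -0.51. A scaling shifts every gene nearly alike. Relative to the median of all genes, the medians of the gene lists below therefore moved by at most 0.008 between the scalings, which is no check of the lists. Medians near 0 changed sign.

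**Figure D1:**
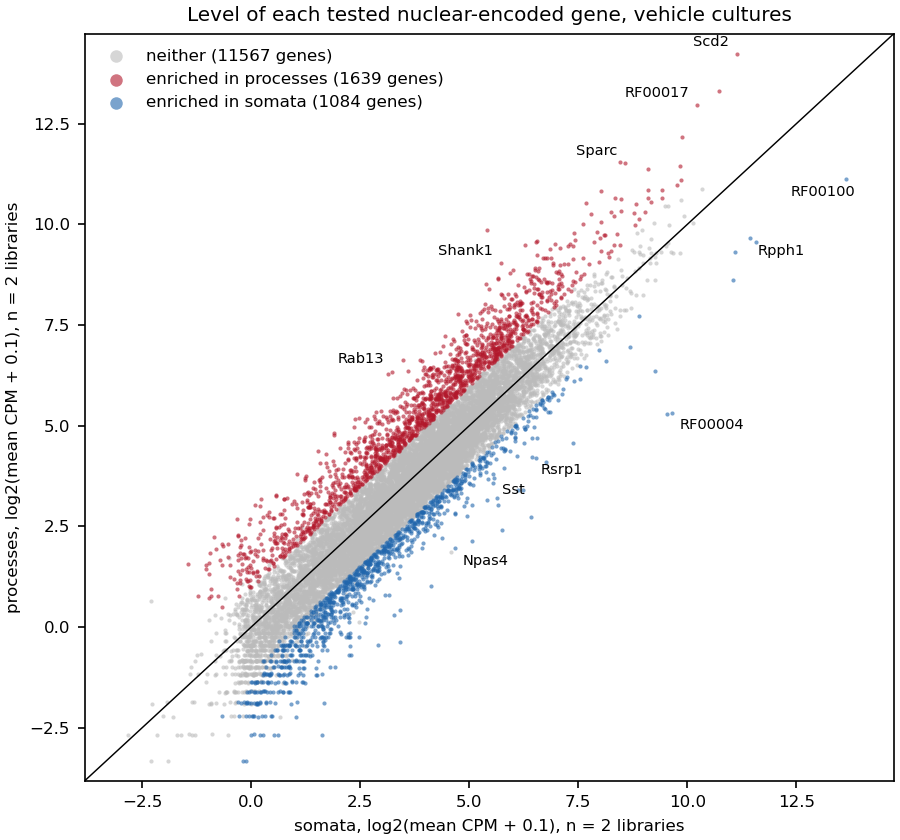
Mean level of each of the 14290 tested nuclear-encoded genes in the 2 vehicle somata libraries (x axis) and the 2 vehicle process libraries (y axis), both as log2(mean CPM + 0.1), with the diagonal marking equal levels. The 1639 genes enriched in processes lie above the diagonal and the 1084 enriched in somata below it, and the Rfam-named RF00004 and RF00100 lie far below it while RF00017 lies above.

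The label of the culture was checked against markers of cell types. All 16 neuronal markers were tested, and their summed level was 2482 and 2782 CPM in somata and 6135 and 6780 CPM in processes. Most of the process sum was Map2, at 985 and 887 CPM in somata and 4693 and 4524 CPM in processes. Camk2a was also higher there, at 118.5 and 111.6 CPM in somata and 772 and 572 CPM in processes. By member, 7 markers were higher in somata and only 4 higher in processes, with a median log2 fold change of -0.36. The sum therefore does not describe the list. Of 20 astrocyte markers, 19 were tested, and their summed level was 8821 and 9714 CPM in somata and 20800 and 22650 CPM in processes. The astrocyte intermediate filament gene Gfap was measured at 1588 and 1781 CPM in somata and at 11110 and 9382 CPM in processes, a log2 fold change of 2.60 (SE 0.20, adjusted p = 3.15e-06, quasi-likelihood test). Gfap thus made up a large part of the summed level in processes. Of the 19 astrocyte markers 11 were higher in processes, 2 (Gja1 and Slc1a3) were higher in somata and 6 were not called. Their median log2 fold change was 0.43, which became -0.03 with scaling by nuclear-encoded counts. The somatic call of Gja1 was lost without any 1 of the 4 libraries (-0.385 to -0.37), and that of Slc1a3 without processes replicate 1 (-0.51) or somata replicate 2 (-0.47). Relative to the typical gene, the called astrocyte markers were therefore mostly higher in processes. The part of astrocyte RNA in the process-side results below was not tested, since in bulk samples more cells of a type and more RNA per cell cannot be told apart. Of 15 microglial markers in the table only 1 passed the filter and Ptprc had no read in any of the 4 libraries. Of 16 endothelial, mural and fibroblast markers 9 were tested, Cldn5 had no read in the 4 libraries, and the summed level was 169 and 218 CPM in somata and 197 and 198 CPM in processes. Of 16 tested markers of the oligodendrocyte lineage 1 was higher in processes and 3 were higher in somata, which became 4 and 8 with the replicate block, a fit that pairs the libraries by their replicate number. Without the block the shares were 6.25% and 18.75%, against 25.7% and 21.9% of all tested genes. Interneuron markers pointed to the somatic side, with 8 of 14 tested markers higher in somata, none higher in processes and a summed level of 671 and 787 CPM in somata against 363 and 425 CPM in processes. Their median log2 fold change was -0.81. It ran from -1.095 without processes replicate 1 to -0.56 without processes replicate 2, and was -0.66 without somata replicate 1. Of 26 tested markers of proliferating cells 6 (23.08%) were higher in processes and 2 (7.692%) higher in somata, or 10 and 3 with the replicate block. Their summed level was 269 and 304 CPM in somata and 341 and 418 CPM in processes.

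Shank1, which encodes a master scaffold of the postsynaptic density, had the largest difference among the 15 leading genes of the process side, which were picked among called genes averaging 10 CPM or more whose compartments did not overlap. Its level was 53.5 and 52.0 CPM in the somata libraries and 661 and 388 CPM in the process libraries. The 2 process values were far apart, and the log2 fold change was 3.31 (SE 0.213, adjusted p = 1.22e-06, quasi-likelihood test), a 9.94-fold difference. Rab13, a small GTPase of membrane traffic, was measured at 9.27 and 9.28 CPM in somata and at 80.8 and 80.9 CPM in processes. Its replicates were nearly equal in both compartments, and the log2 fold change was 3.12 (SE 0.138, adjusted p = 4.46e-07). Neurl1, a ubiquitin ligase, rose from 25.3 and 28.2 CPM in somata to 249 and 191 CPM in processes, a log2 fold change of 3.04 (SE 0.149).

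Further genes of this group encode proteins of organelle upkeep and growth signalling. Tp53inp2, an autophagy regulator, was measured at 93.4 and 91.9 CPM in somata and at 769 and 749 CPM in processes, a log2 fold change of 3.04 (SE 0.117, adjusted p = 4.46e-07, quasi-likelihood test). Pink1, the kinase that marks damaged mitochondria, was at 39.1 and 47.6 CPM in somata and at 299 and 370 CPM in processes, a log2 fold change of 2.95 (SE 0.165). Tsc2, a brake on the growth kinase mTOR, was at 61.5 and 61.3 CPM in somata and at 478 and 415 CPM in processes, a log2 fold change of 2.86 (SE 0.132). The transcription factor gene Atf5 was less even, at 61.5 and 125 CPM in somata and 611 and 933 CPM in processes, and the difference of 3.05 on the log2 scale had an SE of 0.453. Unc13c, a vesicle priming factor of the Munc13 family, had the lowest level of the group, at 4.46 and 2.82 CPM in somata and 35.5 and 18.7 CPM in processes.

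Several of the leading process-side genes are also known in glia. Sparc, a secreted matrix protein made by astrocytes, was at 382 and 384 CPM in somata and at 2715 and 3154 CPM in processes, a log2 fold change of 2.94 (SE 0.145). Gpm6b, a membrane proteolipid of neurons and glia, had a log2 fold change of 3.09 (SE 0.184), and Scd2, a fatty acid desaturase, one of 3.08 (SE 0.154). B2m, the light chain of class I histocompatibility molecules, had a log2 fold change of 2.85 (SE 0.126). These 4 genes were picked for this direction, so sharing it with Gfap and S100b (2.16, SE 0.152) says nothing of their origin. Among called astrocyte markers with at least 5 CPM, Gfap and S100b had the largest differences, while all 19 tested markers had a median of 0.43. The part of astrocyte RNA in the 4 genes was not tested. Shank3 (3.14), the receptor-like Paqr8 (3.01) and the kinesin gene Kif1c (2.99) completed the 15 genes.

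**Figure D2:**
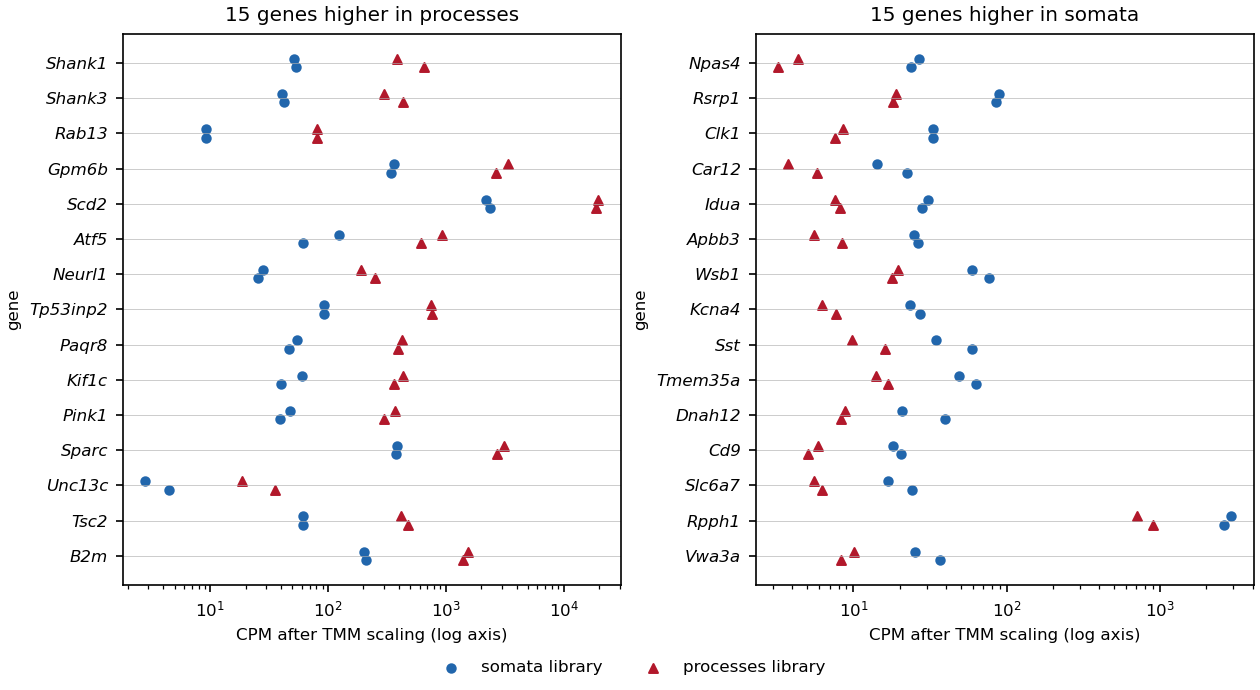
CPM after TMM scaling (log axis) in each vehicle library for the 15 named genes with the largest difference toward processes (left) and toward somata (right), with circles for the 2 somata libraries and triangles for the 2 process libraries. The genes were picked for having no overlap between the compartments, and Shank1, Atf5, Sst and Dnah12 have visibly more spread between replicates than Rab13 or Rsrp1.

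On the somatic side the leading gene, picked by the same rule, was Npas4, an activity-induced transcription factor. Npas4 was measured at 23.6 and 26.9 CPM in somata and at 3.23 and 4.34 CPM in processes, where it had 29 and 37 reads. The log2 fold change was -2.74 (SE 0.234, adjusted p = 6.04e-06, quasi-likelihood test), a 6.67-fold higher level in somata. Rsrp1, which encodes an arginine and serine rich protein, was at 84.9 and 88.6 CPM in somata and at 18.1 and 18.9 CPM in processes, a log2 fold change of -2.23 (SE 0.12, adjusted p = 6.73e-07). Clk1, a kinase that phosphorylates splicing factors, was at 33.2 and 33.1 CPM in somata and at 7.58 and 8.57 CPM in processes, a log2 fold change of -2.04 (SE 0.172).

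The other somatic genes were of several kinds. Kcna4, a voltage-gated potassium channel, was at 27.2 and 23.4 CPM in somata and at 7.69 and 6.22 CPM in processes, a log2 fold change of -1.86 (SE 0.158). Sst, the peptide somatostatin of a class of interneurons, was at 59.2 and 34.7 CPM in somata and at 16.2 and 9.75 CPM in processes, a log2 fold change of -1.85 (SE 0.317). In both compartments the level of Sst in replicate 2 was below that in replicate 1. Tmem35a, a chaperone of nicotinic acetylcholine receptors, had a log2 fold change of -1.85 (SE 0.213), and Slc6a7, a proline transporter, one of -1.79 (SE 0.304). Dnah12, a dynein heavy chain of motile cilia, had a log2 fold change of -1.83 (SE 0.319). Rpph1, the RNA component of nuclear RNase P, was at 2614 and 2900 CPM in somata and at 895 and 711 CPM in processes, a log2 fold change of -1.78 (SE 0.146, adjusted p = 4.84e-06). The other 6 genes of the somatic group were Car12, Idua, Apbb3, Wsb1, Cd9 and Vwa3a, with log2 fold changes from -1.93 to -1.75.

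Among 23 tested mRNAs known from dendrites, 18 were higher in processes, 1 was higher in somata and 4 were not called, with a median log2 fold change of 1.76 against -0.05 over all tested genes. Map2, the microtubule-associated protein that marks dendrites, was at 985 and 887 CPM in somata and at 4693 and 4524 CPM in processes, a log2 fold change of 2.30 (SE 0.142, adjusted p = 1.04e-06, quasi-likelihood test). Kif5c, a heavy chain of the kinesin that carries RNA granules, was at 574 and 516 CPM in somata and at 1950 and 1747 CPM in processes, a log2 fold change of 1.76 (SE 0.158). The member called on the somatic side was Bdnf, the growth factor, at 52.1 and 33.3 CPM in somata and 12.8 and 12.6 CPM in processes (log2 fold change -1.75, SE 0.20, adjusted p = 4.82e-05). Its compartments did not overlap, although the 2 somatic values differed widely. A list of 20 tested mRNAs known from axons and growth cones had 7 higher in processes, 3 higher in somata and a median of 0.24, which became -0.22 with scaling by nuclear-encoded counts and 0.13 without processes replicate 1. The shares were 35% and 15%, against 25.7% and 21.9% of all tested genes. Bcl2l2, a survival factor, was the member of that list with the largest difference (1.40, SE 0.155).

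Postsynaptic scaffolds and the receptors they hold lay on opposite sides. Of 29 tested scaffold genes of the postsynaptic density 24 were higher in processes and 2, Dlg3 and Baiap2, were higher in somata, with a median log2 fold change of 0.88. Nsmf, a messenger protein between synapse and nucleus, was at 165 and 150 CPM in somata and at 868 and 598 CPM in processes, a log2 fold change of 2.22 (SE 0.184, adjusted p = 5.21e-06, quasi-likelihood test). Paralogues differed in size within each scaffold family. The 3 SHANK genes ranged from 1.71 (Shank2) to 3.31 (Shank1), the 4 DLGAP genes from 0.63 (Dlgap2) to 2.22 (Dlgap3), the 3 HOMER genes from 0.45 (Homer1) to 2.25 (Homer2), and the 4 DLG genes from -0.53 (Dlg3) to 1.78 (Dlg4). These ranges are chosen as the extremes of each family and are given as a description. Dlg3 was not called without processes replicate 2 (-0.33) or somata replicate 1 (-0.47), Homer1 was not called without processes replicate 1 (0.39) or somata replicate 2 (0.36), and Baiap2 was not called without either process replicate (-0.44 and -0.37) or without somata replicate 2 (-0.25).

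Of 18 tested subunit genes of ionotropic glutamate receptors 12 were higher in somata, 1 was higher in processes and 5 were not called, with a median of -0.63. Gria2, the AMPA receptor subunit that limits calcium entry, was at 490 and 459 CPM in somata and at 198 and 226 CPM in processes, a log2 fold change of -1.16 (SE 0.115, adjusted p = 1.66e-05, quasi-likelihood test). All 4 AMPA receptor subunit genes were higher in somata, between -0.55 (Gria4) and -1.16, although Gria4 was not called without replicate 1 of processes (-0.38) or of somata (-0.46). Of the 7 NMDA receptor subunit genes 4 were higher in somata and 3 were not called. Grin2b was at 146 and 138 CPM in somata and at 63.0 and 57.7 CPM in processes (log2 fold change -1.23, SE 0.124), and Grin2a had a log2 fold change of -1.25 (SE 0.222). The single member higher in processes was Grik5, a kainate receptor subunit (0.55, SE 0.159, adjusted p = 0.0148), and its call was lost without replicate 1 of processes (0.25) or of somata (0.52). For the inhibitory synapse, 9 of 16 tested genes were higher in somata and none was higher in processes, with a median of -0.58.

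Metabotropic receptors were divided. Of 35 tested receptor genes coupled to G proteins 6 (17.14%) were higher in processes and 12 (34.29%) higher in somata, against 25.7% and 21.9% of all tested genes. Their median was -0.49, which was -0.30 without processes replicate 2. Gabbr1, a subunit of the GABA-B receptor, was at 586 and 784 CPM in somata and at 1680 and 2020 CPM in processes, a log2 fold change of 1.43 (SE 0.194, adjusted p = 0.000159, quasi-likelihood test), whereas its partner subunit Gabbr2 was at 92.0 and 89.2 CPM in somata and at 68.6 and 64.5 CPM in processes (log2 fold change -0.45, SE 0.109, adjusted p = 0.0065). The largest difference toward processes was that of Grm3, a glutamate receptor of neurons and astrocytes, at 36.0 and 29.4 CPM in somata and at 212 and 185 CPM in processes (2.60, SE 0.129). Grm5 had a log2 fold change of 0.83 (SE 0.167).

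Among ion channel genes of the plasma membrane, more were called higher in somata than in processes. Over all tested genes the shares were 21.9% and 25.7%. Of 23 tested voltage-gated sodium and calcium channel genes 12 (52.17%) were higher in somata and 2 (8.696%) higher in processes (4 with the replicate block), with a median of -0.51. Scn3b, an auxiliary sodium channel subunit, was at 90.6 and 81.8 CPM in somata and at 27.99 and 23.96 CPM in processes, a log2 fold change of -1.73 (SE 0.126, adjusted p = 2.32e-06, quasi-likelihood test), and Scn2a, a pore-forming subunit, had one of -1.21 (SE 0.116). Cacna1i, a low-threshold calcium channel, went the other way at 19.2 and 17.6 CPM in somata and 59.9 and 43.3 CPM in processes (1.49, SE 0.154). Of 60 tested potassium channel genes 21 (35%) were higher in somata and 10 (16.67%) higher in processes, with a median of -0.41, which was -0.27 without processes replicate 2. Kcnj16 (1.84, SE 0.29) and Kcnj10 (1.63, SE 0.447), inward rectifier channels known from astrocytes, were among the 10, and Kcnj10 was not called without processes replicate 2 (1.26) or somata replicate 1 (1.30). Of 44 tested protocadherin genes, which encode adhesion proteins that give neurons a surface identity, 31 were higher in somata, none was higher in processes and 13 were not called, with a median of -0.79. Pcdha4 was at 130 and 115 CPM in somata and at 54.6 and 54.4 CPM in processes (-1.17, SE 0.114), and Pcdh20 had a log2 fold change of -1.44 (SE 0.131). Called members came from the beta cluster (10 of 16) and the gamma cluster (14 of 17), whose genes are similar in sequence so that the counting can split reads between them, and from genes outside the clusters (6 of 10).

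**Figure D3:**
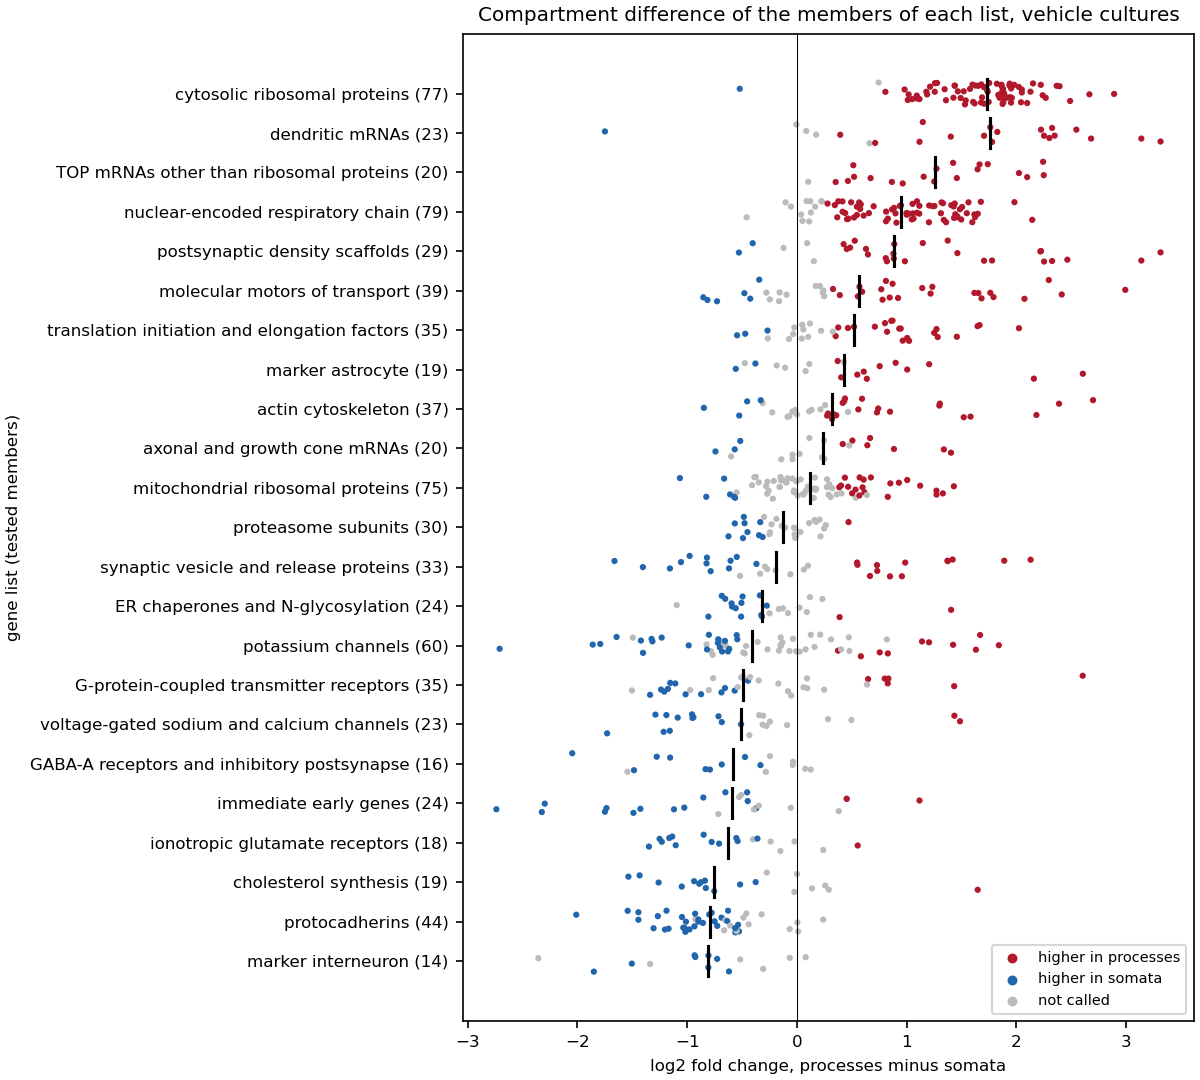
Log2 fold change (processes minus somata) of each tested member of 23 gene lists in vehicle cultures, with the number of tested members in brackets, a black bar at each list's median, and colours for genes called higher in processes, called higher in somata or not called. Medians run from 1.76 for dendritic mRNAs and 1.73 for cytosolic ribosomal proteins to -0.79 for protocadherins and -0.81 for interneuron markers.

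The presynaptic list held genes of both directions. Of 33 tested genes of synaptic vesicles and release 13 (39.39%) were higher in processes, 12 (36.36%) were higher in somata and 8 were not called. The shares of all tested genes were 25.7% and 21.9%. The median of the list was -0.19. It ranged from -0.38 without processes replicate 1 to 0.0027 without processes replicate 2, and was -0.08 without somata replicate 1. Among 15 genes of the active zone, of vesicle priming and of the SNARE fusion machinery 11 were higher in processes and 1, Snap25, was higher in somata (median 0.85), a call that became 3 with the replicate block. Snap25 itself was not called without processes replicate 2 (-0.27) or somata replicate 1 (-0.29). Ppfia3, a scaffold of the active zone, was at 51.1 and 53.5 CPM in somata and at 253 and 205 CPM in processes, a log2 fold change of 2.13 (SE 0.17, adjusted p = 4.1e-06, quasi-likelihood test). Cplx2, which clamps and primes SNARE complexes, was at 244 and 242 CPM in somata and at 1026 and 775 CPM in processes, a log2 fold change of 1.89 (SE 0.148). Among 9 genes of integral vesicle proteins and transmitter transporters 7 were higher in somata and 1, Syt11, was higher in processes (0.55, SE 0.125), with a median of -0.98. The vesicular glutamate transporter gene Slc17a6 had the lowest value among these (-1.66, SE 0.295). Of 5 endocytic genes 3 were higher in somata and none was higher in processes. This division of the list was made after its values were seen and is given as a description.

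Motor genes were described as a list and then by family, a grouping made after their values were seen. Of 39 tested genes of transport motors 23 were higher in processes, 6 were higher in somata and 10 were not called, with a median of 0.57. Kif1c, a kinesin-3, was at 40.2 and 60.1 CPM in somata and at 365 and 434 CPM in processes, a log2 fold change of 2.99 (SE 0.249, adjusted p = 5.24e-06, quasi-likelihood test). Trak2, an adaptor that links mitochondria to kinesin, was at 83.7 and 80.6 CPM in somata and at 430 and 445 CPM in processes, a log2 fold change of 2.41 (SE 0.108). All 3 kinesin-1 heavy chain genes (from 1.62 for Kif5a to 2.29 for Kif5b) and all 6 kinesin-3 genes were higher in processes. Of 5 kinesin-2 genes none was higher in processes (1 with the replicate block) and 2, Kif3a and Kifap3, were higher in somata. Of the 14 dynein and dynactin genes 4 were called on each side, 28.6% against 25.7% and 21.9% of all tested genes. The microtubule-associated protein gene Map1a was at 225 and 220 CPM in somata and at 1400 and 1055 CPM in processes (2.46, SE 0.154), while the whole list of 34 tested tubulin, microtubule-associated and neurofilament genes had 9 higher in processes, 7 higher in somata and a median of -0.05, shares (26.5% and 20.6%) close to those of all tested genes. With the replicate block 14 and 11 of them were called, and the median was -0.13 without processes replicate 1 and 0.06 without processes replicate 2.

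Of 37 tested genes of the actin cytoskeleton 21 were higher in processes and 4 higher in somata, with a median of 0.32 that became -0.14 when libraries were scaled by their nuclear-encoded counts. Wasf3, an activator of branched actin, was at 31.2 and 28.9 CPM in somata and at 209 and 181 CPM in processes, a log2 fold change of 2.70 (SE 0.121, adjusted p = 4.46e-07, quasi-likelihood test). Ppp1r9b, the spine protein spinophilin, was at 112 and 107 CPM in somata and at 698 and 453 CPM in processes (2.39, SE 0.189). Tmsb4x, which binds actin monomers, had a log2 fold change of 1.52 (SE 0.122).

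**Figure D4:**
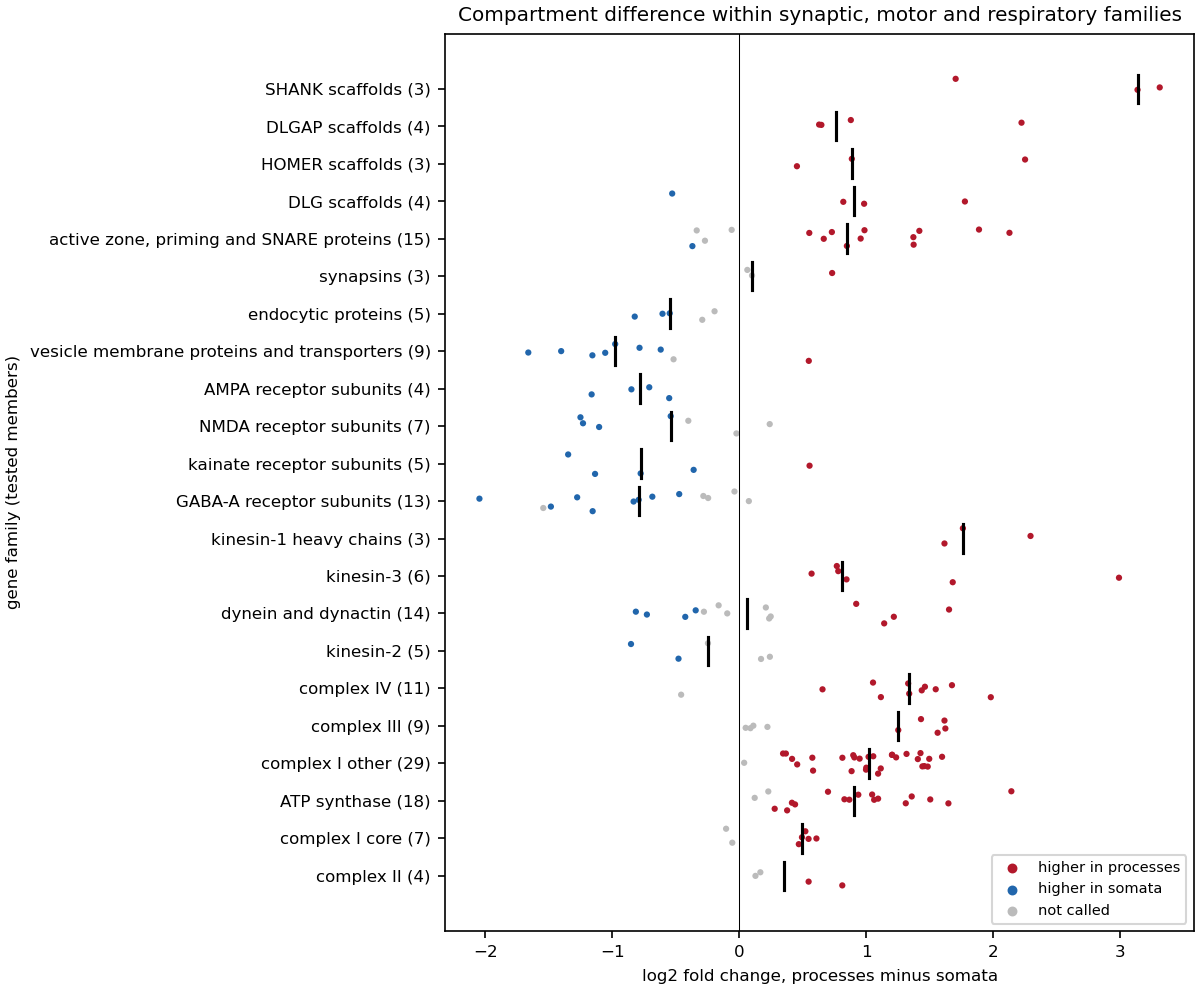
Log2 fold change (processes minus somata) of each tested member of 22 gene families from the synaptic, motor and respiratory lists, with a black bar at each median and colours for the call. SHANK scaffolds, kinesin-1 and complex IV lie to the right, while vesicle membrane proteins and the AMPA, kainate and GABA-A receptor subunits lie mostly to the left of 0.

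Among the gene lists, that of cytosolic ribosomal proteins had the highest share of members called on the process side (97.4%). Of 77 tested genes of cytosolic ribosomal proteins 75 were higher in processes, 1 was higher in somata and 1 was not called, with a median log2 fold change of 1.73. Rplp0, a protein of the ribosomal stalk, was at 237 and 279 CPM in somata and at 1138 and 996 CPM in processes, a log2 fold change of 2.05 (SE 0.143, adjusted p = 1.84e-06, quasi-likelihood test). Rpl37a was at 36.7 and 45.8 CPM in somata and at 256 and 267 CPM in processes, a log2 fold change of 2.67 (SE 0.13). The exception was Rpl7l1, a ribosomal protein-like gene, at 16.1 and 18.3 CPM in somata and 10.3 and 13.7 CPM in processes (-0.52, SE 0.161, adjusted p = 0.0214), and it was not called without processes replicate 1 (-0.32) or somata replicate 2 (-0.43). The small subunit had a median of 1.88 over 29 genes, and the large subunit one of 1.67 over 46. Ribosomal protein genes have many processed pseudogene copies, and reads that match several copies are of uncertain origin.

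Transcripts of ribosomal proteins are known to begin with a C followed by a run of pyrimidines, the 5′ terminal oligopyrimidine (TOP) motif through which mTOR signalling controls their translation. Start sites were read from RefSeq, assembly GRCr8, which is newer than the build used for counting, and were found for 10260 of the 14290 tested genes (71.8%). The motif was searched as a C at the annotated start followed by at least 4 letters that are each C or T, on the transcribed strand. It stood at the start of 19 of the 62 ribosomal protein genes with an annotated start (30.6%), against 463 of 19005 protein-coding RefSeq genes (2.44%). When the run could begin up to 5 bases from the annotated start, a setting added after the exact search had been seen, the numbers were 35 of 62 (56.5%) and 3111 of 19005 (16.4%). Start sequences of 5 such genes are shown with 5 bases before and 20 bases from the start, to let the motif be seen, and that of the ATP synthase gene Atp5f1e is shown as a process-side gene without it. Capitals mark the motif.
Rpl37a (chr9:81748086-81748110, plus strand): tgcgtCTCTTCCTCTTCgggcttgg
Rplp0 (chr12:46718371-46718395, minus strand): cacttCTCTCgccaggcgtcctcat
Rpl19 (chr10:83519059-83519083, plus strand): aagctCTTTCCTTTCgctgctgcgt
Rps18 (chr20:4933740-4933764, plus strand): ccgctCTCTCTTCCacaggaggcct
Rps27 (chr2:177964587-177964611, minus strand): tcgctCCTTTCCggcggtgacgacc
Atp5f1e (chr3:183680153-183680177, minus strand): ggtccgggctcaggctactctgaag

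The log2 fold changes of these genes were 2.67 for Rpl37a, 2.05 for Rplp0, 1.71 for Rpl19, 1.82 for Rps18, 2.13 for Rps27 and 2.14 for Atp5f1e. Atp5f1e was picked as a gene with a large difference, so its value does not compare genes with and without the motif. No gene of the respiratory chain (0 of 69 with a start), the translation factors (0 of 33), the proteasome (0 of 26) or the list of other TOP mRNAs described next (0 of 16) had the motif exactly at the annotated start. When the run could begin up to 5 bases away, it was found in 7 of 16 other TOP mRNAs (43.8%), 8 of 33 translation factors (24.2%), 13 of 69 respiratory chain genes (18.8%) and 5 of 26 proteasome genes (19.2%), against the 16.4% of all promoters given above. A match describes the letters only, and an annotated start can lie some bases from the one used in these cells.

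Of 20 tested TOP mRNAs that do not encode ribosomal proteins by name, 19 were higher in processes and none was higher in somata, with a median of 1.26. Tpt1, a growth-related TOP mRNA, was at 93.3 and 98.2 CPM in somata and at 452 and 459 CPM in processes, a log2 fold change of 2.25 (SE 0.119, adjusted p = 6.73e-07, quasi-likelihood test). Pabpc1, the cytoplasmic poly(A) binding protein, was at 83.8 and 84.1 CPM in somata and at 413 and 381 CPM in processes, a log2 fold change of 2.24 (SE 0.11). In both genes the 2 process values lay far above the somatic ones. Of 35 tested initiation and elongation factors, some of which are also in the TOP list, 21 were higher in processes and 3 were higher in somata, with a median of 0.52. Elongation factors were higher in processes in 5 of 6 cases, such as Eef1b2 (2.02, SE 0.132) and Eef1a1 (1.27, SE 0.129). The 10 subunits of eIF3, the scaffold of initiation, ranged from -0.47 (Eif3d) to 1.66 (Eif3f), with 4 higher in processes and 1 higher in somata. The helicase genes Eif4a1 (-0.54) and Eif4a2 (-0.27) were the other 2 factors higher in somata. Eif3d was not called without somata replicate 2 (-0.375), and Eif4a2 was not called when any of the 4 libraries was left out (from -0.289 to -0.245).

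Nuclear genes of the respiratory chain were mostly on the process side. Of 79 tested genes of the respiratory chain and ATP synthase 67 were higher in processes, none was higher in somata and 12 were not called, with a median of 0.95. Atp5f1e, the epsilon subunit of ATP synthase, was at 36.4 and 40.9 CPM in somata and at 163 and 178 CPM in processes, a log2 fold change of 2.14 (SE 0.119, adjusted p = 7.4e-07, quasi-likelihood test). Cox6a1, a subunit of cytochrome c oxidase, was at 61.7 and 68.0 CPM in somata and at 292 and 220 CPM in processes, a log2 fold change of 1.98 (SE 0.147). Atp5f1b, the catalytic beta subunit of ATP synthase, was at 464 and 491 CPM in somata and at 636 and 638 CPM in processes (0.42, SE 0.11), a call that was lost without somata replicate 1 (0.37). Within complex I the 7 core subunits had a median of 0.49 and the other 29 subunits one of 1.02, and complexes II, III and IV had medians of 0.36, 1.25 and 1.34. This division was made after the values were seen. Of 75 tested genes of the mitochondrial ribosome 21 were higher in processes and 6 higher in somata, with a median of 0.12 that became -0.35 with scaling by nuclear-encoded counts, 0.07 without processes replicate 2 and 0.07 without somata replicate 1. The shares were 28% and 8% against 25.7% and 21.9% of all tested genes, and without 1 library 11 to 14 and 3 to 4 of the genes were called. Of 30 tested proteasome genes 1 (3.333%) was higher in processes (2 with the replicate block) and 9 (30%) were higher in somata. Their median was -0.12, and -0.06 without processes replicate 1 or -0.08 without somata replicate 2. Of 17 glycolytic genes 3 were higher in processes and 4 (7 with the replicate block) higher in somata. The glycolytic median was -0.17, and -0.27 without processes replicate 1 or -0.10 without processes replicate 2. The glycolytic shares were 17.65% and 23.53%, against 25.7% and 21.9% of all tested genes.

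The secretory pathway was near or below the typical gene. Of 24 tested genes of ER chaperones and N-glycosylation 13 were higher in somata and 2 higher in processes, with a median of -0.32. The 19 tested genes of the translocon and the signal recognition particle had 7 higher in processes and 4 higher in somata (median 0.10, which became -0.36 with scaling by nuclear-encoded counts and ran from -0.03 without processes replicate 2 to 0.22 without processes replicate 1, with 0.16 and 0.04 without somata replicates 1 and 2), among them Sec63 at 55.8 and 48.8 CPM in somata and 108 and 119 CPM in processes (1.11, SE 0.119) and Srp9 (1.32, SE 0.211). The shares of that list were 36.84% and 21.05%, against 25.7% and 21.9% of all tested genes. Of 33 tested Golgi glycosyltransferases 6 (18.18%) were higher in processes and 11 (33.33%) higher in somata, with a median of -0.12 that was -0.20 without somata replicate 1 and -0.24 without somata replicate 2. Cholesterol synthesis, which takes place in the ER, had 12 of 19 genes higher in somata and 1 higher in processes (2 with the replicate block), with a median of -0.75. Dhcr7, the last enzyme of one branch, was at 44.8 and 37.9 CPM in somata and at 16.8 and 11.6 CPM in processes, a log2 fold change of -1.53 (SE 0.209, adjusted p = 0.000166, quasi-likelihood test). Sc5d, the desaturase of the same pathway, was the exception at 61.4 and 54.5 CPM in somata and 170 and 193 CPM in processes (1.65, SE 0.117). Of 40 tested collagen and laminin genes 12 (30%, against 21.9% of all tested genes) were higher in somata and none was higher in processes (median -0.67), while the replicate block called 24 and 1. Without 1 library 4 to 14 of them were called higher in somata, and the median was -0.39 without somata replicate 1 and -0.90 without somata replicate 2.

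mRNAs of nuclear proteins did not lie on the somatic side as a body. Of 55 tested chromatin modifier genes 24 were higher in processes and 3 higher in somata (7 with the replicate block), with a median of 0.28 that became -0.18 when libraries were scaled by their nuclear-encoded counts. Chd3, a chromatin remodeller, was at 130 and 123 CPM in somata and at 527 and 376 CPM in processes (1.83, SE 0.162), and Tet3, a DNA demethylase, had a log2 fold change of 1.44 (SE 0.124). Of 22 tested Sm, LSm and small snRNP protein genes 11 were higher in processes and 2 higher in somata (median 0.53), with Lsm11 of the histone pre-mRNA machinery at 1.40 (SE 0.121). Of 42 tested genes of larger spliceosome and SR proteins 10 were higher in processes and 9 (14 with the replicate block) higher in somata, shares of 23.8% and 21.4% that were close to those of all tested genes (25.7% and 21.9%). Their median was -0.04 and changed sign without processes replicate 1 (0.06) or somata replicate 2 (0.04), and it was -0.08 without processes replicate 2 and -0.11 without somata replicate 1. Snrnp70 of the U1 particle was at -1.07 (SE 0.111). RNA polymerase II and Mediator had 7 and 10 of 40 genes higher in processes and in somata (17.5% and 25%, median -0.17), a median that ran from -0.31 without processes replicate 2 to -0.05 without processes replicate 1, with -0.10 without somata replicate 2. Nuclear pore and import genes had 9 and 6 of 31 (29.0% and 19.4%, median -0.16), the latter 10 with the replicate block, and Zfp and Znf zinc finger genes 34 and 61 of 239 (14.2% and 25.5%, median -0.25). Of 39 tested RNA granule proteins 15 (38.46%) were higher in processes and 7 (17.95%) higher in somata (median 0.06, which became -0.40 with scaling by nuclear-encoded counts and was between 0.13 and 0.25 without any 1 of the 4 libraries). Samd4a, a translational repressor, was at 12.7 and 14.9 CPM in somata and at 68.1 and 72.9 CPM in processes (2.35, SE 0.127).

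Immediate early genes, which are transcribed within minutes of synaptic activity, were mostly on the somatic side. Of 24 tested genes 14 were higher in somata and 2, Arc and Homer1, were higher in processes, with a median of -0.59. Arc, whose mRNA is a classical dendritic cargo, was at 17.6 and 19.8 CPM in somata and at 44.2 and 37.1 CPM in processes, a log2 fold change of 1.12 (SE 0.181, adjusted p = 0.000551, quasi-likelihood test). Fos, a transcription factor, was at 20.7 and 17.4 CPM in somata and at 6.47 and 4.93 CPM in processes, a log2 fold change of -1.74 (SE 0.182). The 2 compartments did not overlap for either gene.

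RNA classes were compared by the names and biotypes in the files. Protein-coding genes made up 13137 of the tested genes, and 25.7% of these were higher in processes and 22.2% higher in somata. Rfam-named symbols, which group the copies of a structured RNA family under one accession, stood apart: of 93 tested 69 were higher in somata, 3 were higher in processes and 21 were not called, with a median of -2.24. RF00100 is the 7SK RNA, which holds the elongation factor P-TEFb inactive in the nucleus, and its level was 12230 and 13480 CPM in somata and 2582 and 1891 CPM in processes. Its log2 fold change was -2.52 (SE 0.18, adjusted p = 2.1e-06, quasi-likelihood test). RF00030, the RNA of RNase MRP, which cuts ribosomal precursors in the nucleolus, was at 512 and 722 CPM in somata and at 88.8 and 74.3 CPM in processes (-2.92, SE 0.30). RF00009, the RNase P family, had a log2 fold change of -1.79 (SE 0.216), close to that of the Rpph1 symbol.

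The Rfam-named symbols on the process side were RF00017, RF00019 and RF00405, of which the last was not called without processes replicate 1 (0.71) or somata replicate 2 (1.01). RF00017 is the RNA of the signal recognition particle, a cytoplasmic ribonucleoprotein that halts translation of secreted proteins, and it was at 1134 and 1267 CPM in somata and at 8750 and 7218 CPM in processes. Its log2 fold change was 2.73 (SE 0.159, adjusted p = 8.64e-07, quasi-likelihood test), and the separately listed Rn7sl1, a gene of the same RNA, had one of 2.69 (SE 0.121). RF00019, the Y RNA of the Ro ribonucleoprotein, was at 18.02 and 17.66 CPM in somata and at 39.9 and 22.1 CPM in processes (0.80, SE 0.216, adjusted p = 0.0113), and its call was lost without processes replicate 1 (0.31) or somata replicate 2 (0.78). Fragments of these structured RNAs map to many copies, so each value is that of a family.

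Among other non-coding classes, 47 of 251 tested lincRNA genes (18.7%) were higher in somata and 34 (13.55%) were higher in processes, with a median of -0.28. Both shares were below those of all tested genes, 21.9% and 25.7%. The clone-named lincRNA AC134224.2 was at 2236 and 2024 CPM in somata and at 389 and 400 CPM in processes, a log2 fold change of -2.43 (SE 0.129, adjusted p = 6.73e-07, quasi-likelihood test), and AC134224.1 had one of -2.03 (SE 0.156). Of 15 tested snoRNA genes 6 (40%) were higher in processes, none was higher in somata and 9 were not called. Their median was 0.33. This covers only the genes given that biotype, since the Rfam-named symbols were not sorted by kind of RNA. The miRNA biotype held 46 tested genes, of which 17 (37.0%) were higher in processes and 11 (23.9%) higher in somata, with a median of -0.04. Most of these carry clone names, and of the 10 with a miRNA name 6 were higher in somata and none was higher in processes, at levels near 1 to 5 CPM, such as Mir770 at 4.17 and 3.84 CPM in somata and 1.11 and 1.06 CPM in processes (10 and 9 reads). Reads of 100 bases from total RNA do not measure mature miRNAs, so these values concern longer transcripts over the miRNA genes. Of 190 tested processed pseudogenes 77 (40.53%) were higher in processes and 12 (6.316%) higher in somata, with a median of 0.49, while 19 unprocessed pseudogenes had a median of -0.67. A processed pseudogene can take up reads of the mRNA it was copied from.

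**Figure D5:**
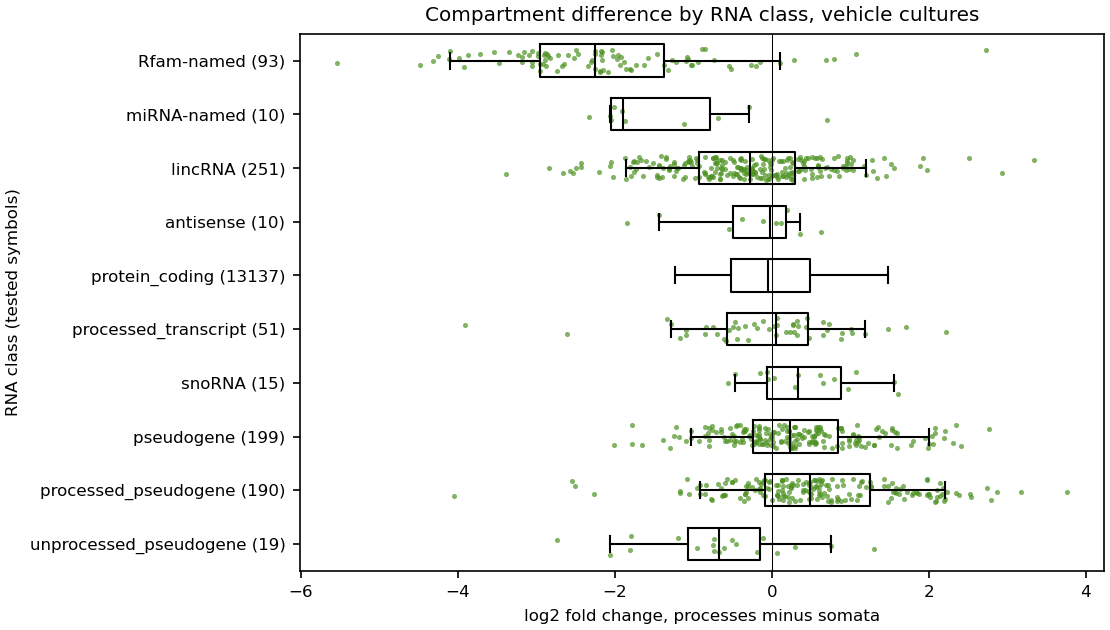
Log2 fold change (processes minus somata) by RNA class in vehicle cultures, where each box spans the quartiles with a line at the median, whiskers reach the 5th and 95th percentiles and points show single symbols in the smaller classes. The Rfam-named class has its median at -2.24, protein-coding genes at -0.05 and processed pseudogenes at 0.49.

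The same compartments of PTX cultures gave 1607 genes (11.2%) enriched in processes and 1383 (9.68%) in somata. The PTX libraries differ from the vehicle libraries, but both comparisons came from the same fit over all libraries. The comparisons shared its gene filter, scaling and estimates of spread, so their agreement is not independent. Of the vehicle genes enriched in processes 1367 were also enriched there under PTX, 83.4% of the vehicle and 85.1% of the PTX set. On the somatic side 774 genes were shared, 71.4% of the vehicle and 56.0% of the PTX set. All 30 named genes of the leading groups kept their sign and passed an adjusted p-value of 0.05 under PTX, for instance Shank1 (2.80), Rab13 (3.22), Npas4 (-2.51) and Rsrp1 (-2.31). Keeping the sign did not set these genes apart. Of all vehicle genes enriched in processes 99.63% kept their sign under PTX, and of those enriched in somata 99.82%. In a test of whether the compartment difference itself changed with PTX, no gene passed an adjusted p-value of 0.05 in the quasi-likelihood test, 572 genes (4.003%) had an unadjusted p-value under 0.05, and DESeq2 and the likelihood ratio test called 4 genes each. With the replicate number as a block 15 genes were called.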

How the data were processed

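Total RNA of the 2 compartments was depleted of ribosomal RNA and sequenced as 100 bp single reads from a directional kit. According to the methods, the authors trimmed reads with Trimmomatic, mapped them to Rnor_6.0 with Subread subjunc and the Ensembl annotation, and quantified them with featureCounts, while the submitters' processing notes name STAR, featureCounts and edgeR. The deposited values are raw counts per gene symbol without normalization, summed by the authors over genes that share a symbol. The strand setting of the counting was not given in the sources used here, so antisense and overlapping genes, like near-identical copies, are of uncertain origin. Biotypes were copied from a deposited PTX table, whose fold changes and p-values, like those of the other PTX table, were not used, and 360 tested genes had none. The table held 13 symbols turned into dates, of which those of septins were matched to their names.

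A gene was kept when its reads exceeded 20 in 2 or more of the 8 libraries. TMM factors and the fit over all 4 conditions, with 1 coefficient each, came from edgeR 4.0.16 in R 4.3.3, and the processes minus somata contrast of vehicle cultures was tested with glmQLFit and glmQLFTest. Benjamini-Hochberg adjustment ran over every tested gene, and 19 genes of the mitochondrial genome were then left out. The standard error (SE) was derived from the F statistic as the absolute log2 fold change over its square root. The test was first checked on simulated counts. Leading genes were the 15 with the largest change in each direction among called genes averaging 10 CPM or more, with no overlap and a gene symbol. From each list the 2 highest in CPM and the 2 with the largest change among called members with at least 5 CPM were candidates for naming, and exceptions, family extremes and counts of 5 or fewer were named after their values were seen. The gene lists and the comparison were chosen with earlier results of these data known. Protein features were not analysed here, and results of some genes are not reported here.

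The replicate numbers come from the labels, which do not say what they mark. The deviations of replicate 2 from replicate 1 correlated with r = 0.29 between the vehicle compartments and with r from 0.27 to 0.54 for the other pairs of conditions. Libraries of the same number thus shared part of their deviation. The fit reported has no replicate term, so its SEs, p-values and calls do not take this pairing into account. The replicate block does, and at any size it called 4250 genes higher in processes and 4003 higher in somata, against 3669 and 3135. Counts from the block stand beside those it moved by over 1.5 times. Alternatives were the replicate block, DESeq2 1.42.0, the likelihood ratio test, glmTreat, other scalings, filters and thresholds, only the 4 vehicle libraries, and each library left out in turn.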

Additional observations from a re-analysis of the deposited data

How the results depend on the processing

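The 4 counts of the vehicle comparison kept within 1.5 times of their values under DESeq2, the likelihood ratio test, RLE scaling, TMM without mitochondrial genes, both other filters and the 4 libraries alone. With the replicate block, 1655 genes were enriched in processes and 1259 in somata, and 4250 and 4003 were called at any size. Leaving out 1 library gave 1549 to 1641 genes enriched in processes, 855 to 1158 enriched in somata, and 2873 to 3151 and 2130 to 2479 called at any size. Scaling moved the counts most, because it shifts every gene alike. With library sizes of nuclear-encoded counts, 786 genes were enriched in processes and 3272 in somata, with 1912 and 7076 called at any size and 797 and 3485 enriched under PTX. With total library size, which counts mitochondrial reads, the numbers were 35 and 12067, and 173 and 13271 at any size. Upper quartile scaling gave 1818 genes enriched in somata and 4704 called there at any size. A test against a log2 fold change of 1 (glmTreat) left 854 and 189 genes. The test of a changed compartment difference called 0 genes in the quasi-likelihood fit and 4 with DESeq2, 4 with the likelihood ratio test, 10 without a filter and 15 with the block. Scaled by nuclear-encoded counts, Atp5f1b (-0.0455) and Homer1 (-0.0072) changed sign without passing the test, and Dlgap2, Grik5, Grm5, RF00019, RF00405 and Syt11 lost the call. The replicate block changed no call of the 116 genes named in the report, and among the list counts given in the report it moved by over 1.5 times those beside which its own count stands. Depth limits the process side most, where a median gene had 101 and 95 reads.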
